A study of Mus musculus with 6 samples.

Results

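Cycling cells of the mouse cerebral cortex at postnatal day 12 (P12) were examined as the 517 barcodes, of 7765 cortical barcodes that passed the filters, in which RNA of 8 cell cycle genes was found. A barcode was selected when it held at least 1500 unique molecular identifiers (UMIs, each counting 1 captured RNA molecule), at most 17% of them from mitochondrial genes, and at least 5 UMIs in total over Mki67, Top2a, Cdk1, Ccna2, Ccnb2, Nusap1, Birc5 and Tpx2. Members were thus chosen on measured values, and their level of these 8 genes is given as a description only. The control library held 165 cycling barcodes among 3015, and the mutant library held 352 among 4750. Across all 6 libraries of the series, 67751 barcodes passed the same filters on UMIs and mitochondrial share.

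The study addressed signals that pericytes, the mural cells wrapped around capillaries, send to neighbouring cells, here the TGF-beta family ligand Nodal. Control mice carried loxP-flanked Nodal alleles (Nodal lox/lox) without Cre, and Nodal iPCKO mice carried the same alleles together with Pdgfrb(BAC)-CreERT2, a bacterial artificial chromosome transgene in which Pdgfrb regulatory sequence drives a tamoxifen-activated Cre recombinase in mural cells. Both groups were given 50 µg tamoxifen on each day from P1 to P3, and the age at collection was P12. For each genotype, 2 mice supplied 1 BD Rhapsody whole-transcriptome library after the meninges and myelin debris had been taken away, so the design has no replicate, and every interval below covers counting error alone. Differences between genotypes cannot be told apart from differences between these 2 pools of mice or their libraries.

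A dividing cell copies its DNA in S phase, with helicase subunits such as Mcm2 to Mcm7 and nucleotide enzymes such as Rrm2, and then builds a spindle in G2 and M phase, with the kinase Cdk1, its cyclins and the spindle protein Tpx2. Mki67 coats mitotic chromosomes, Top2a untangles sister DNA, Nusap1 bundles spindle microtubules and Birc5 is a subunit of the chromosomal passenger complex. In the second postnatal week the mouse cortex still adds glia and capillaries: microglia, the resident macrophages, expand by division, astrocytes and oligodendrocyte precursors (OPCs) divide locally, and endothelial cells divide as the vessel network grows.

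Many G2/M genes share 2 short promoter elements, the cell cycle genes homology region (CHR) and the CCAAT box, and 3 promoters are shown because they carry both. In RefSeq promoter windows (GRCm38.p6; 250 bases before to 50 after a gene's start), 6 of the 8 cycle genes were matched. TTTGAA or TTCGAA, searched on both strands as CHR, was present in 4 of these 6, and CCAAT, searched on both strands, was present in the same 4, against 41.1% of all genes. Of all 27025 genes with a window, 21.7% held a CHR sequence and 8.61% held both. Among the genes of the lists used below, a CHR sequence was in 26 of 32 G2/M genes and in 4 of 26 S phase genes. The 250 bases before the start are printed 5′ to 3′ on the gene's own strand, for Cdk1 (chr10:69352913-69353162, minus strand), Mki67 (chr7:135716380-135716629, minus strand) and Top2a (chr11:99024190-99024439, minus strand), with CHR and CCAAT matches of either strand in capitals.
Cdk1: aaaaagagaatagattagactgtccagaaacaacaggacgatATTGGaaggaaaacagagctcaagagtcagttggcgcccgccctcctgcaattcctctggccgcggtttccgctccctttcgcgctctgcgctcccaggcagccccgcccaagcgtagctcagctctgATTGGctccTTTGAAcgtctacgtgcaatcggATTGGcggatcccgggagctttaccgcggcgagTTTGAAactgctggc
Mki67: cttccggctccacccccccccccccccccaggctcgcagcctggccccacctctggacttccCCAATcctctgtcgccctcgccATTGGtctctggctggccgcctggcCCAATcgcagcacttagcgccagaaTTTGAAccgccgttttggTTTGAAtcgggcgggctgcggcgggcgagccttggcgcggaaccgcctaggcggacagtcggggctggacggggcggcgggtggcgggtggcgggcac
Top2a: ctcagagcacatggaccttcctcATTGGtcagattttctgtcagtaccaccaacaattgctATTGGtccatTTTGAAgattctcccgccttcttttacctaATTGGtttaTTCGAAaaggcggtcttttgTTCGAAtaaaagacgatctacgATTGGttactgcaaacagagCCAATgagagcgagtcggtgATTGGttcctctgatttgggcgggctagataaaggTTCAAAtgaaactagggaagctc
The Cdk1 window held 2 CHR and 3 CCAAT matches, the Mki67 window 2 and 3, and the Top2a window 4 and 6. Birc5 and Nusap1 had neither sequence in their windows.

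Both libraries were of similar depth per barcode, with a median of 7830.5 UMIs in other control barcodes and 7764 in other iPCKO barcodes, and total counts of 33889545 and 54791946. Cycling barcodes were deeper, with medians of 14360 and 12580 UMIs. Mitochondrial shares had medians between 7.09% and 7.26% in cycling and other barcodes of both libraries. The 2 libraries shared 20 barcode sequences among their filtered cells and 0 among their cycling cells. The targeted gene, Nodal (chromosome 10, 61253587 to 61261117 of GRCm39, plus strand), had 196 UMIs in 109 of 402 control mural-like cells and 0 UMIs in 607 iPCKO mural-like cells, at least 95.9-fold lower relative to all UMIs with a floor of 3 UMIs over the group.

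Lineage was assigned by the pair of genes with the most UMIs: Csf1r and C1qa for microglia, Slc1a3 and Aldoc for astroglia, Cldn5 and Egfl7 for endothelium, Rgs5 and Vtn for mural cells, and 3 further pairs for OPCs (Pdgfra, Olig1), neurons (Dcx, Tubb3) and fibroblasts (Dcn, Col1a1). Other markers were then counted in the cycling cells. Among microglia-like cycling cells P2ry12 was found in 51 of 52 control and 143 of 146 iPCKO cells, and Cx3cr1 in 52 and 144. At least 3 UMIs over Pecam1, Cdh5, Flt1 and Ly6c1 were present in 67 of 67 and 137 of 137 endothelial-like cycling cells. Over Pdgfrb, Kcnj8, Abcc9, Notch3, Acta2 and Tagln it held for 23 of 24 and 35 of 36 mural-like cycling cells. The same mural genes reached 3 UMIs in 0 of 52 control and 30 of 146 iPCKO microglia-like cycling cells, and Pdgfrb is described separately below. Markers of other classes were present in mural-like cycling cells too. At least 3 UMIs over the OPC markers Cspg4, Olig2, Sox10 and C1ql1 were found in 21 of 24 and 30 of 36 cells, of which Cspg4, a gene that pericytes also express, had 276 and 377 UMIs and Olig2 and Sox10 had 0. Over the fibroblast markers Col1a2, Col3a1 and Lum it was 18 of 24 and 29 of 36 cells, and over the endothelial markers 9 of 24 and 20 of 36. Of the astroglial check genes, whose sum is not reported here, Aqp4 had 0 and 1 UMIs, Gja1 7 and 4 and Sox9 5 and 1. In endothelial-like cycling cells, check genes of other classes were found too, Gja1 in 46 of 67 and 82 of 137 cells and P2ry12 in 9 and 8. The astroglial pair had 35 and 34 UMIs of Slc1a3 and 1 and 7 of Aldoc there, and whether Gja1 came from astrocytes was not tested. Sums over the astroglial and microglial check genes are not reported here. The part of other cells or of stray RNA in the mural and endothelial results was not tested. The astroglia-like label was weaker and is examined separately below.

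Microglia-like and endothelial-like cells made up most of the cycling cells in both libraries. Of 165 control cycling cells, 67 were endothelial-like, 52 microglia-like, 24 mural-like and 12 astroglia-like. Of 352 iPCKO cycling cells, 137 were endothelial-like, 146 microglia-like, 36 mural-like and 26 astroglia-like. The remaining 10 control and 7 iPCKO cycling cells lay in the small classes. OPC-like cells contributed 2 and 1, fibroblast-like cells 3 and 6, neuron-like cells 4 and 0, and unassigned barcodes 1 and 0.

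The cycling share of microglia-like cells was higher in the iPCKO library. It was 5.62% (52 of 926 cells, exact Clopper-Pearson 95% interval 4.22 to 7.30%) in the control and 9.75% (146 of 1497, 8.30 to 11.4%) in the iPCKO library. The ratio was 1.74-fold (conditional exact 95% interval 1.26 to 2.43). Microglia-like cells themselves were 30.7% of control and 31.5% of iPCKO cells, so their share of all cells differed little. Because deeper barcodes reach 5 cycle UMIs more easily, barcodes were also thinned to 3000 UMIs, leaving out 48 control and 89 iPCKO microglia-like barcodes that were shallower, and selected at 2 or more cycle UMIs. The shares were then 7.06% (62 of 878) and 11.7% (165 of 1408). Leaving out microglia-like barcodes with at least 3 UMIs over border macrophage or neutrophil genes, a step added after seeing the data, gave 4.50% and 9.14%.

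In endothelial-like, mural-like and astroglia-like cells the interval of the ratio included no difference, but for astroglia-like cells this depended on the UMI limit. Endothelial-like cells cycled at 8.30% (67 of 807, 6.49 to 10.4%) in the control and 9.39% (137 of 1459, 7.94 to 11.004%) in the iPCKO library, a ratio of 1.13-fold (0.84 to 1.54). In sections of P12 iPCKO cortex the study reported significantly fewer endothelial cells with the DNA label EdU per area. That is a different measure from a share of captured cells. Mural-like cells cycled at 5.97% (24 of 402, 3.86 to 8.75%) and 5.93% (36 of 607, 4.19 to 8.12%), a ratio of 0.993-fold (0.577 to 1.74). Of these 4 lineages astroglia-like cells had the lowest shares, at 1.76% (12 of 681, 0.914 to 3.06%) and 3.20% (26 of 812, 2.10 to 4.66%), a ratio of 1.82-fold (0.885 to 3.95). In OPC-like cells 2 of 21 and 1 of 43 cycled, too few to set a ratio on. At 3 or more cycle UMIs the astroglia-like shares were 2.79% (19 of 681) and 5.05% (41 of 812), a log2 ratio of 0.86 whose interval, 0.04 to 1.72, left out 0. Over all lineages the cycling share was 5.47% (4.69 to 6.35%) and 7.41% (6.68 to 8.19%). Whether the lineages differed from each other in the genotype ratio was not tested.

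**Figure D1:**
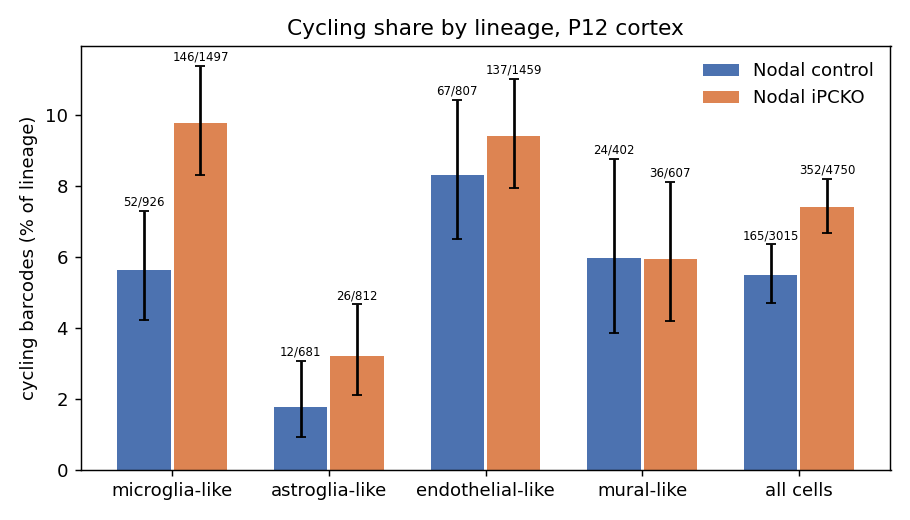
Cycling barcodes as a percentage of all barcodes of a lineage (y axis) in the Nodal control (blue) and Nodal iPCKO (orange) cortex library, with exact 95% Clopper-Pearson intervals as error bars and the numbers of cells above. The intervals of the microglia-like cells, 4.22 to 7.30% and 8.30 to 11.4%, lie apart, and those of the astroglia-like, endothelial-like and mural-like cells overlap.

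Neuron-like barcodes, from cells that mostly have left the cycle, gave no single background level. Of 193 neuron-like iPCKO barcodes, at a median of 28546 UMIs, 0 were cycling, which allows a share of up to 1.55% by a floor of 3 barcodes (exact upper limit 1.89%), and 19.2% held any cycle UMI. In the control 4 of 65 neuron-like barcodes qualified, with a median of 86 cycle UMIs, and in 2 of them a second lineage pair held at least 25% of the lineage UMIs. Among microglia-like barcodes 27.3% in the control and 33.2% in the iPCKO library held any cycle UMI, at medians of 6026 and 6166 UMIs in the cells not counted as cycling. Barcodes under 200 UMIs, taken as RNA outside cells, carried the 8 genes at 320.6 and 365.7 CPM (UMIs of a gene scaled to 1000000 UMIs in total).

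Pooled over lineages, most members lay far above the limit of 5 UMIs, but this differed by lineage. Over all lineages 103 of 165 control and 223 of 352 iPCKO cycling barcodes held 20 or more cycle UMIs. That held for 35 of 52 and 104 of 146 microglia-like cells and 10 of 12 and 19 of 26 astroglia-like cells. For endothelial-like cells it was 39 of 67 and 73 of 137, and for mural-like cells 11 of 24 and 23 of 36. Just inside the limit, with 5 to under 7 UMIs, lay 15 and 41 barcodes, and just outside it, with 3 to under 5, lay 58 and 140. Cycling microglia-like cells had a median of 37.5 cycle UMIs in the control (quartiles 12 and 68.5, highest 108) and 44.5 in the iPCKO library (quartiles 14.25 and 63.75, highest 117). Scaled to 10000 UMIs, medians were 47.9 and 47.2 in microglia-like cells, but 13.02 and 11.8 in endothelial-like cells. Of the cycling cells of the 4 main lineages the endothelial-like ones were deepest, with medians of 22176 and 19878 UMIs when cycling against 9066 and 9441.5 otherwise. Among cells chosen after thinning to equal depth, the full depth of cycling endothelial-like cells was still 2.01-fold and 1.63-fold that of the others, and that of cycling microglia-like cells 1.35-fold and 1.46-fold.

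**Figure D2:**
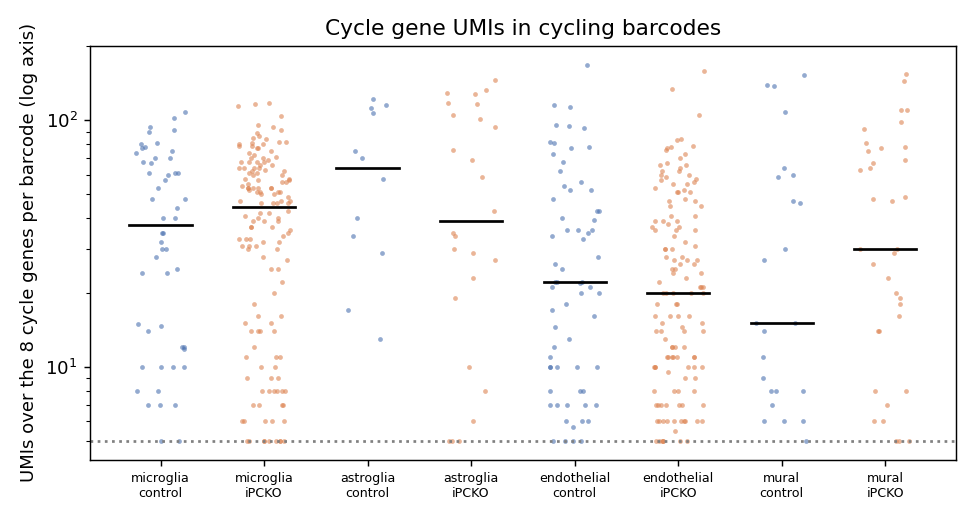
UMIs over the 8 cycle genes (y axis, log scale) in each cycling barcode of 4 lineages, control in blue and iPCKO in orange, with the median as a black bar and the limit of 5 UMIs as a dotted line. Medians run from 15 in control mural-like cells to 64 in control astroglia-like cells, and many barcodes of each group lie above 20.

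The position in the cycle was described with a list of 32 S phase genes and one of 38 G2/M genes, neither of which holds any of the 8 selecting genes. Since most of the 8 selecting genes peak in G2 and M, the rule favours cells in these phases, and the balance of the lists is a description of the cells it selected. In cycling microglia-like cells S phase genes held 26.8% of the UMIs of both lists in the control (1397 of 5206) and 26.7% in the iPCKO library, and S phase UMIs outnumbered G2/M UMIs in 9 of 52 and 30 of 146 cells (17.3% and 20.5%). The log2 ratio of S phase UMIs per G2/M UMI, iPCKO over control, was -0.01 (-0.10 to 0.08). In these cells no gene of either list passed the limit used below. Of all 8676 genes tested 2.59% passed as higher and 2.97% as lower, so the count of 0 is not read as a result about these lists. The ratio was -0.18 (-0.27 to -0.08) at 10 or more cycle UMIs and -0.23 (-0.31 to -0.15) when cells were chosen on the 2 lists instead. Both of these intervals left out 0, but they count UMIs, which are not independent within a cell. In the main setting the intervals on the shares of cells, 8.23 to 30.3% and 14.3 to 28.0%, overlapped.

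Endothelial-like cells were spread more evenly. S phase genes held 42.9% of their cycle UMIs in the control and 41.6% in the iPCKO library, and S phase UMIs were ahead in 31 of 67 and 54 of 137 cells. In endothelial-like cells that did not cycle, S phase genes stood at 461.6 and 492.9 CPM and G2/M genes at 311.2 and 310.2. Microglia-like cells that did not cycle had 698.2 and 682.6 against 287.0 and 298.6 CPM. Per 10000 UMIs, cycling endothelial-like cells held medians of 13.02 and 11.8 UMIs of the selecting genes, against 47.9 and 47.2 in microglia-like cells. The part of this baseline in the S phase shares was not tested. By UMIs mural-like cells differed between the libraries, with 40.1% and 29.9% S phase UMIs. S phase was ahead in 14 of 24 cells (58.3%, 36.6 to 77.9%) and 11 of 36 cells (30.6%, 16.3 to 48.1%). Intervals on cells overlap for mural-like cells, whereas UMIs of 1 cell are not independent of each other. Astroglia-like cells had 43.9% and 30.4%, with S phase ahead in 4 of 12 and 9 of 26 cells.

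**Figure D3:**
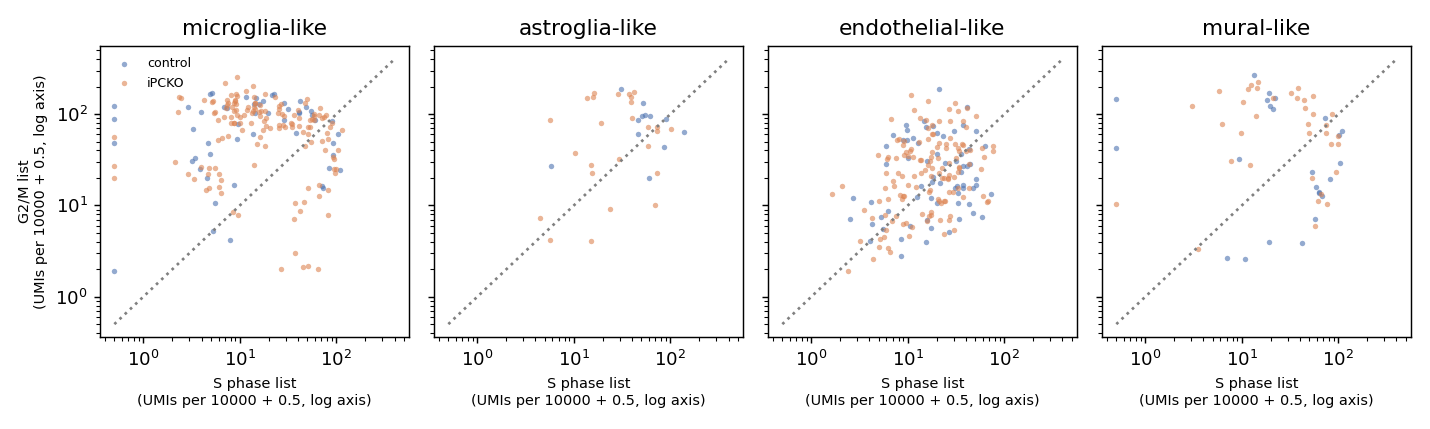
UMIs of the S phase list (x axis) and of the G2/M list (y axis) per 10000 UMIs of a barcode, both plus 0.5 on log axes, for cycling barcodes of 4 lineages in the control (blue) and iPCKO (orange) library, with the dotted line at equal values. Microglia-like barcodes lie mostly above the line (S phase ahead in 9 of 52 and 30 of 146), and endothelial-like barcodes on both sides of it (31 of 67 and 54 of 137).

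Gene levels in cycling microglia-like cells were compared by summing UMIs over the 52 control cells (443789 UMIs) and the 146 iPCKO cells (1439360 UMIs). A gene was counted as higher or lower when its CPM ratio was at least 2-fold and the conditional exact 95% interval of the ratio left out 0 on the log2 scale, among genes with at least 20 UMIs over both libraries. A gene at 0 in 1 library was set to 3 UMIs there, so its ratio depends on that setting. The 20 UMIs can be reached through 1 library alone, more easily through iPCKO with its larger total. Of 8676 genes, 225 (2.59%) were higher and 258 (2.97%) lower in iPCKO. Scaling by the median of ratios gave 275 higher and 218 lower. Since 1 cell can decide a sum, each gene was also compared without its top cell in each library, a step added after seeing the data. Then 210 of the higher genes kept the call, but 104 of the lower genes. The 20 UMIs and both limits were applied again to the UMIs left, so a call can also be lost through lower counts.

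Csf1, Axl and Cd52 were among the genes counted as higher in iPCKO cycling cells. Csf1, the colony-stimulating factor that binds Csf1r and drives microglial survival and division (chromosome 3, 107648364 to 107667806 of GRCm39, minus strand), had 24 UMIs in 12 of 52 control cells and 607 in 80 of 146 iPCKO cells. That is 54.1 and 421.7 CPM, a log2 ratio of 2.96 (2.38 to 3.62). In microglia-like cells that did not cycle it stood at 124.7 and 467.4 CPM, a log2 ratio of 1.91. Axl, a receptor kinase for the uptake of dying cells, had 40.6 CPM in the control and 259.1 in the iPCKO library, a log2 ratio of 2.68 (2.00 to 3.45). Cd52, a short surface glycoprotein of leukocytes, had 340.3 and 1185.9 CPM, a log2 ratio of 1.80 (1.56 to 2.05), and was found in 42 of 52 and 142 of 146 cells. In barcodes under 200 UMIs Csf1 stood at 80.8 and 172.0 CPM and Axl at 76.7 and 96.2. These levels lay above those of control and below those of iPCKO cycling cells. Cd52, at 46.0 and 129.9 CPM outside cells, lay above that level in both libraries.

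Cxcl10, Ccl12, Il1b and Ccl5, which code for secreted immune signals, were also among the higher genes. Cxcl10, a chemokine induced by interferon, had 423.6 CPM in control and 1639.6 CPM in iPCKO cycling cells, a log2 ratio of 1.95 (1.74 to 2.17), from 22 of 52 and 104 of 146 cells. Ccl12, a monocyte-attracting chemokine, stood at 252.4 CPM in the control and at 941.4 in iPCKO, a log2 ratio of 1.90 (1.62 to 2.19). Il1b, an inflammatory interleukin, stood at 105.9 and 440.5 CPM (log2 ratio 2.06, 1.63 to 2.52). Ccl5, a T cell chemokine, had 0 UMIs in control cycling cells and 80 in 12 iPCKO cells, and so passed the UMI minimum through iPCKO alone. All of these kept their call without the top cell.

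A list of 13 activated microglia genes was named by the study, most of them from these libraries, and is therefore no independent evidence of direction. Of these genes 10 were higher and 0 lower, with a median log2 ratio of 1.73 against -0.06 over all genes tested. In microglia-like cells that did not cycle the median of the same genes was 1.29. Of 14 interferon-induced genes 12 could be compared and 10 were higher, 8 of them also without the top cell, with a median of 1.83 in cycling and 1.46 in other cells. Ifitm3 and Ifi27l2a had the most UMIs among these, with log2 ratios of 2.13 (1.45 to 2.88) and 1.86 (1.31 to 2.46). Ifitm3, at 42.8 and 186.9 CPM in these cells, lay below its level in barcodes under 200 UMIs (267.9 and 290.7 CPM), whereas Ifi27l2a, at 65.3 and 236.9 CPM, lay above it (5.93 and 16.6 CPM). Isg15, Irf7 and Ifit2 had 0 UMIs in control cycling cells and 30, 28 and 35 in iPCKO. Rsad2 and Ifit3 were the 2 genes that lost the call, since 30 of 46 and 15 of 32 iPCKO UMIs came from 1 cell.

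Of 16 measured disease-associated microglia genes, a set described in degenerating brain, 14 had ratios above 0, 5 were higher (Spp1, Itgax, Clec7a, Axl and Csf1) and 0 lower, with a median of 0.53. Clec7a, with 0 UMIs in control and 42 in iPCKO cycling cells, passed the UMI minimum through iPCKO alone. Apoe and Trem2, the lipid carrier and lipid receptor of the set, had log2 ratios of 0.08 (-0.10 to 0.26) and 0.09 (-0.10 to 0.28). Of the 10 antigen presentation genes 5 of 9 measured were higher, but 2 without the top cell. H2-Aa, a class II chain, was absent from the control counts (0 UMIs) and had 154 UMIs in iPCKO cells, of which 148 lay in 1 cell. Cd74, the class II chaperone, had a log2 ratio of 1.96 (1.39 to 2.58) and 141 of its 340 iPCKO UMIs in 1 cell, and kept its call without it.

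Homeostatic microglia genes pointed the other way, with 16 of 16 ratios below 0, 1 of them past the limit and a median of -0.46, against -0.52 in cells that did not cycle. Fcrls, an Fc receptor-like gene of resting microglia, was lower, with 624.2 CPM in the control and 259.8 in the iPCKO cells, a log2 ratio of -1.26 (-1.49 to -1.03). P2ry12, the purinergic receptor of microglial processes, had 3650.4 and 2252.4 CPM, a log2 ratio of -0.70 (-0.78 to -0.61). Tmem119 had a log2 ratio of -0.73 (-0.94 to -0.50). P2ry12 and Tmem119 stayed within the 2-fold limit.

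**Figure D4:**
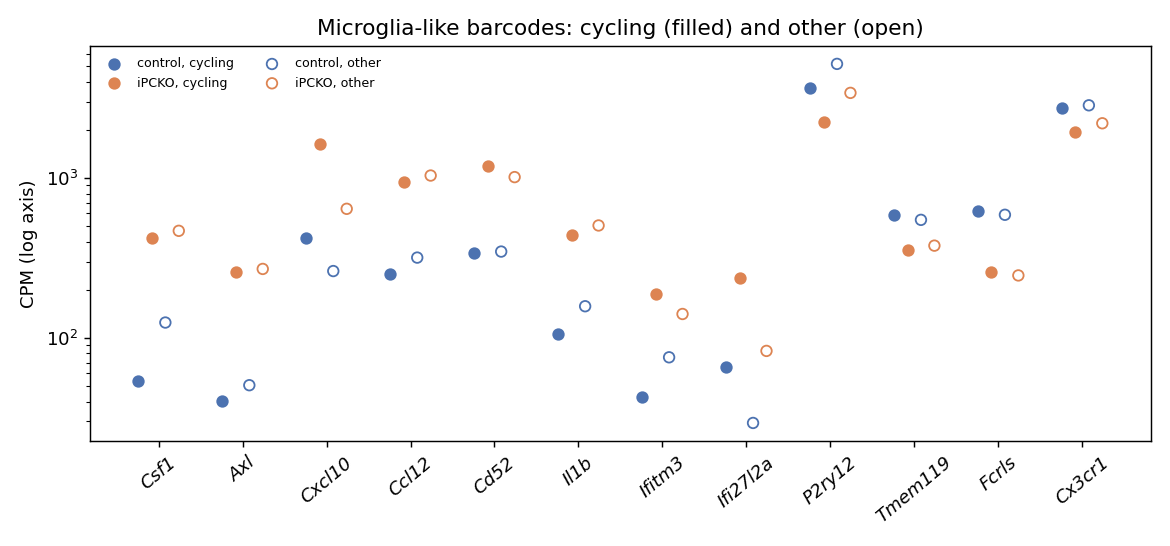
CPM (log axis) of 12 genes in microglia-like barcodes, cycling as filled and other as open circles, control in blue and iPCKO in orange. For Csf1, Axl, Cxcl10, Ccl12, Cd52, Il1b, Ifitm3 and Ifi27l2a the iPCKO circle is above the control circle in cycling and in other cells, and for P2ry12, Tmem119, Fcrls and Cx3cr1 it is below.

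**Figure D5:**
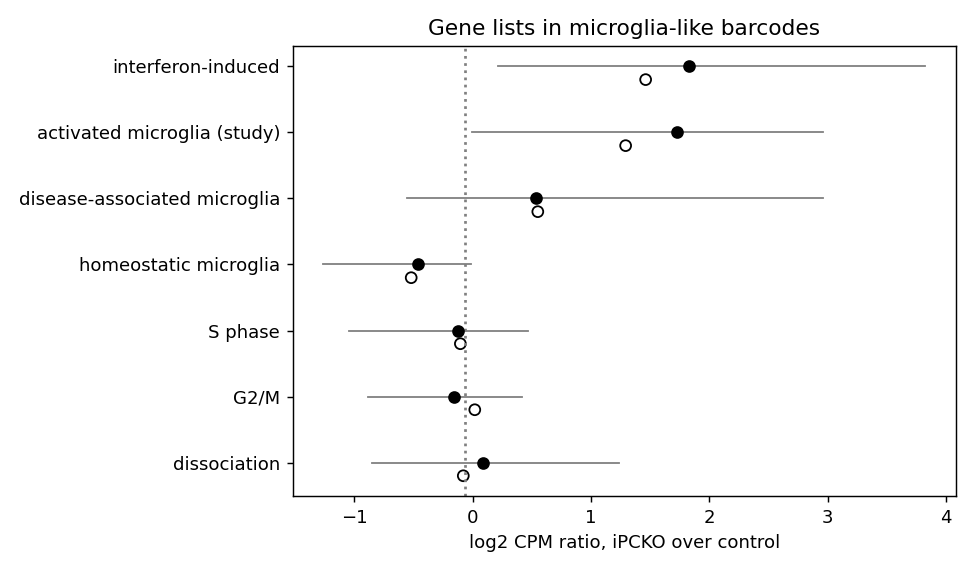
Median log2 CPM ratio, iPCKO over control, of 7 gene lists in cycling (filled circle) and other (open circle) microglia-like barcodes, with the lowest and highest member in cycling cells as a grey line and the median of all genes tested, -0.06, as a dotted line. Medians in cycling cells run from 1.83 for interferon-induced genes to -0.46 for homeostatic genes, and those of the S phase, G2/M and dissociation lists lie between -0.16 and 0.09.

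Growth signal genes of cycling microglia-like cells were counted in 3 lists. Of 11 measured genes of the Csf1r pathway list only Csf1 passed the limit, and Csf1r itself had 4425.5 and 3518.2 CPM, a log2 ratio of -0.33 (-0.41 to -0.26). Of 6 measured mitogen receptors 1 was higher, Pdgfrb, the platelet-derived growth factor receptor of mural cells. Of 10 measured genes of the Nodal and TGF-beta list 0 passed in either direction, with a median of -0.01. Tgfbr2, a TGF-beta receptor, had a log2 ratio of 0.13 (-0.17 to 0.44), and Acvr1b, a Nodal receptor, had 5 and 14 UMIs. Of 18 measured G1 cyclins and cycle brakes 0 passed. With 2.59% and 2.97% of all genes past the limit, a count of 0 in lists this short is near the background and shows nothing particular to them. Ccnd1, the G1 cyclin that mitogens induce, had a log2 ratio of 0.03 (-0.34 to 0.41), and Cdkn1a, an inhibitor of cyclin-dependent kinases, of -0.47 (-0.66 to -0.28). Of 14 measured genes of the dissociation list, those induced while tissue is digested, 1 was higher (Ccl4, which is also on the activated microglia list) and 0 lower. The part of dissociation in these results was not tested.

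Pdgfrb had the highest ratio among the named genes that kept their call. It had 1 UMI in control cycling microglia-like cells and 194 in 93 of 146 iPCKO cells, with at most 6 in a cell. That is 2.25 and 134.8 CPM, against 2.90 and 215.3 CPM in the other microglia-like cells and 80.0 and 264.2 CPM in barcodes under 200 UMIs, so that its iPCKO level in cells was below that outside cells. The 14 mural identity genes summed to 9.01 and 153.5 CPM in the cycling microglia-like cells, most of it Pdgfrb in iPCKO. Rgs5, at 1483.1 and 1291.3 CPM outside cells, had 9 and 24 UMIs, a log2 ratio of -0.28 (-1.44 to 1.01), Vtn had 3 and 1, Abcc9 0 and 2 and Kcnj8 0 and 1. The iPCKO mice carry the Pdgfrb(BAC)-CreERT2 transgene and the controls do not, and neither its part nor that of stray RNA in this count was tested.

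Of 258 lower genes in cycling microglia-like cells 104 kept the call without the top cell. This does not show how many rested on single cells, since lower counts alone can lose a call. At 50 or more UMIs per gene 90 lower and 155 higher genes were counted. Leaving out barcodes with border macrophage or neutrophil RNA moved the counts little, to 245 higher and 239 lower of 7976 genes. S100a8, Ngp, S100a9, Camp, Lcn2, Chil3, Cstdc5, Ltf, Stfa1 and Fcnb, the 10 genes with the widest margin, include granule and antimicrobial genes of neutrophils, and every control UMI of each came from 1 cell. That control cell alone held 1628 UMIs of S100a8, S100a9, Ngp, Camp and Ltf. Of 5 measured border macrophage genes 4 were lower (Mrc1, Pf4, Cbr2 and F13a1), 1 of them (Mrc1) also without the top cell. Cells with at least 10 UMIs over 7 such genes were 5 of 52 among control and 2 of 146 among iPCKO cycling cells, against 37 of 874 and 36 of 1351 among the others. Besides Fcrls and Mrc1, genes that kept the call included Slc15a2, a peptide transporter (23 and 12 UMIs, a log2 ratio of -2.64), and Dab2, an endocytic adaptor (-1.67). Both lay below their levels in barcodes under 200 UMIs, Slc15a2 at 51.8 and 8.34 CPM against 96.5 and 49.7 outside cells. Dab2 stood at 272.7 and 85.5 CPM against 469.0 and 415.3, whereas Fcrls and Mrc1 lay above theirs. The part of stray RNA was not tested.

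Cycling endothelial-like cells, 67 control cells with 1540563 UMIs and 137 iPCKO cells with 2883383 UMIs, differed in fewer genes. Of 10988 genes, 156 (1.42%) were higher and 203 (1.85%) lower, and 123 and 134 of them kept the call without the top cell. Angpt2, a ligand of the Tie2 receptor that loosens vessels (chromosome 8, 18739202 to 18791603 of GRCm39, minus strand), had 10 UMIs in 7 of 67 control cells and 108 UMIs in 33 of 137 iPCKO cells. Its log2 ratio was 2.53 (1.59 to 3.63), against 0.18 in cells that did not cycle, and the difference between these ratios was not tested. Itih5, a hyaluronan-binding matrix protein, had 40 and 275 UMIs (1.88, 1.39 to 2.39), from 21 of 67 and 89 of 137 cells.

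Csf1 was higher in cycling endothelial-like cells too, with 89.6 CPM in the control and 202.5 CPM in the iPCKO library, a log2 ratio of 1.18 (0.91 to 1.46), from 45 of 67 and 113 of 137 cells. Vcam1, an adhesion molecule for leukocytes, had 66 and 305 UMIs, a log2 ratio of 1.30 (0.92 to 1.71). Stc1, a secreted stanniocalcin, had a log2 ratio of 2.37 (1.43 to 3.48). In iPCKO cycling endothelial-like cells 4 of these genes did not exceed their level in barcodes under 200 UMIs: Angpt2 stood at 37.5 CPM in cells and 39.8 outside, Itih5 at 95.4 and 102.3, Stc1 at 33.6 and 34.5, and Vcam1 at 105.8 and 126.5. Their control levels in cells were further below those outside, and the part of stray RNA was not tested. Csf1 lay above its level outside cells in both libraries (80.8 and 172.0 CPM). Some calls rested on 1 cell: 26 of the 31 iPCKO UMIs of Rsad2 and 26 of 26 of Ccl5 came from 1 cell each, and 45 of 72 of Ccl4, which alone of the 3 kept its call without that cell. Among lower genes Gkn3 and Gja5, which mark arteries, had 46 of 52 and 27 of 34 control UMIs in 1 cell. Stra6, the retinol transporter, had 142 and 114 UMIs, a log2 ratio of -1.22 (-1.59 to -0.86), and Emp1, an epithelial membrane protein, -1.16 (-1.48 to -0.84), both in over 30 cells of each library.

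Counts in endothelial identity and barrier genes were near the background of 1.42% and 1.85%. Of 13 endothelial identity genes 0 passed in either direction, with a median of -0.16, and of 12 measured barrier genes 0 passed, with a median of -0.28 against -0.02 over all genes tested. Kdr, the main VEGF receptor, had 1276.8 and 1792.3 CPM, a log2 ratio of 0.49 (0.41 to 0.56), and Mfsd2a, the barrier lipid transporter, a log2 ratio of -0.28 (-0.44 to -0.12). Of 32 S phase genes 4 had ratios above 0 (median -0.28) and 1 was lower (Gins2, a replication helicase subunit, 28 and 24 UMIs). Of 38 G2/M genes 10 had ratios above 0 (median -0.22) and 0 passed, and of 18 measured G1 cyclins and brakes 1 was higher (Cdk6, a G1 kinase, 20 and 78 UMIs). Of 12 measured interferon-induced genes 3 were higher, and 0 of these kept the call without the top cell.

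Cycling mural-like cells were few, 24 in the control (285895 UMIs) and 36 in the iPCKO library (382931 UMIs), and their genes were compared only after the data had been seen. Of 5851 genes, 165 (2.82%) were higher and 259 (4.43%) lower, and 124 and 130 kept the call without the top cell. Of 14 mural identity genes 1 was higher and 3, which code for contractile proteins of smooth muscle, were lower, with a median of 0.23 and 11 ratios above 0. Acta2 had 2224.6 CPM in 10 of 24 control cells and 759.9 CPM in 10 of 36 iPCKO cells, a log2 ratio of -1.55 (-1.76 to -1.35). Tagln had a log2 ratio of -1.94 (-2.31 to -1.58) and Myh11 of -2.61 (-3.37 to -1.92). In mural-like cells that did not cycle these log2 ratios were -0.49 for Acta2, -0.25 for Tagln and -0.32 for Myh11, and the difference was not tested. Eln, elastin of the arterial wall, had 391 UMIs in 11 control cells and 25 in 6 iPCKO cells, a log2 ratio of -4.39 (-5.03 to -3.81), whereas mural-like cells that did not cycle had 1120.2 and 1256.1 CPM.

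Pericyte genes of the same cells were close to parity, with log2 ratios of 0.15 (-0.16 to 0.47) for Kcnj8, 0.10 (-0.12 to 0.32) for Abcc9 and 0.03 (-0.20 to 0.26) for Cspg4. Nodal had 11 UMIs in 4 of 24 control cycling cells and 0 in the 36 iPCKO cells, too few for the 20 UMIs required of a gene. Pdgfrb had 444.2 and 1431.1 CPM, a log2 ratio of 1.69 (1.41 to 1.98), in the library whose mice carry the Pdgfrb transgene. By summed UMIs the balance of the cycle lists differed in the mural-like cells, whereas the intervals on cells given above overlapped. Genes of a list were read in the same few cells and are not independent of each other. Of the 8 selecting genes 7 had ratios above 0, with a median of 0.55, which is a description only because these genes chose the cells. Of 30 measured S phase genes 10 had ratios above 0, with a median of -0.27. Of these 30, 3 were lower (Hells, Ccne2 and E2f1), 1 of them also without the top cell. Of 37 measured G2/M genes, 36 had ratios above 0, with a median of 0.54, and 3 were counted as higher: Cenpa and Knl1, of the centromere and kinetochore, and Aurkb, a mitotic kinase. Reln, Rtn1, Ndnf and Gap43, genes expressed in neurons, were lower with nearly all control UMIs in 1 cell for each gene, at 33 of 34, 29 of 31, 39 of 40 and 22 of 23 UMIs.

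The astroglia-like cycling cells were not uniform. In 5 of 12 control and 12 of 26 iPCKO cells Aqp4, the astrocyte water channel, had at least 3 UMIs, and the pair Slc1a3 and Aldoc had a median of 101 and 158 UMIs (ranges 65 to 193 and 61 to 239). These Aqp4 cells held a median of 29 and 34.5 cycle UMIs, against 64 and 39 over all astroglia-like cycling cells. The other cells of this lineage had Aqp4 under 3 UMIs. The limit on Aqp4 was chosen after seeing the values, and the split is a description. Of the 26 iPCKO cells 5 had a second lineage pair at 25% or more of the lineage UMIs, against 2 of 12 control cells, and Scrublet marked 6 and 2 as doublets. With 12 control cells, fewer than the 20 required, gene ratios of this lineage and of OPC-like cells are not given.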

How the data were processed

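Single-cell RNA of 2 cortex libraries (1 per genotype, 2 mice each, 33889545 and 54791946 UMIs) was analysed. The authors aligned reads with STAR 2.7.10a (STARsolo) to GRCm39 with Gencode annotation. They set no cell filter at that step and divided multi-mapping reads by expectation maximization. Their own analysis later removed barcodes of low complexity, high mitochondrial share or unusually high counts. Because multi-mapping reads were divided, the deposited values are estimated counts of UMIs per gene and barcode, not normalized. They were summed over cells and rounded for exact intervals. The annotation version is given differently in 2 places of the study. Gene positions were taken from a later Gencode release on the same build.

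Filters were at least 1500 UMIs and at most 17% mitochondrial UMIs. Doublets were kept, and Scrublet (scanpy 1.11.5) marked 24 control and 48 iPCKO cells, left out as an alternative. No test was possible with 1 library per group, so shares have Clopper-Pearson and ratios conditional exact 95% intervals, computed with scipy 1.17.1. A count of 0 was set to 3 UMIs in ratios. Thinning drew 3000 UMIs per barcode without replacement. Ambient RNA was not subtracted. The rule on calls was tried on simulated Poisson counts without variation between cells or mice. That setting cannot show how the rule performs on sums that 1 cell can decide. Members and gene lists were chosen with earlier results of these data known. Named genes were the 10 per direction with the interval bound farthest from 0, and, of each gene list, members with the most UMIs or past 2-fold. Predicted, unnamed and mitochondrial genes were counted but not named, and genes kept without their top cell were named after seeing the data. The labels' protocol text describes the lung, and the cortex preparation was taken from the study's methods. Of the lung libraries only the number of barcodes past the filters was used, and the lists of barcode parts were not used here. Results of some genes are not reported here.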

Additional observations from a re-analysis of the deposited data

How the results depend on the processing

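No paired analysis was possible because each genotype has 1 library. Under 10 alternatives (3 or 10 cycle UMIs, 1000 or 3000 UMIs per barcode, 10% mitochondrial UMIs, thinning, no Scrublet doublets, no mixed barcodes, 4 lineage pairs, cells chosen at 35 UMIs of the S phase and G2/M lists) and the added one without macrophage or neutrophil barcodes, the log2 ratio of the microglia-like cycling share stayed within its main interval. The other cycling shares and the microglia-like share of cycling cells also stayed within theirs wherever they could be computed, but the astroglia-like interval left out 0 at 3 cycle UMIs (0.04 to 1.72) and under no other alternative. The log2 ratio of S phase per G2/M UMIs in microglia-like cells moved from -0.01 to -0.18 at 10 cycle UMIs and to -0.23 with the 2 lists. Its interval left out 0 in both, but it counts UMIs, which are not independent within a cell.

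Counts of genes moved with the limits. In microglia-like cells, a 1.5-fold limit gave 351 higher and 585 lower, thinning 117 and 125, 50 UMIs per gene 155 and 90, 1 UMI per gene 462 lower, leaving out the top cell 104 lower, and median-of-ratios scaling 275 and 218. In endothelial-like cells the 1.5-fold limit gave 342 and 476, 50 UMIs per gene 79 and 72, thinning 85 and 80, 1 UMI per gene 398 lower, and leaving out the top cell 134 lower. Fewer UMIs or genes enter under thinning and the higher UMI limit. For Nodal in mural-like cells the bound on the log2 ratio was -6.58 and became -5.59 after thinning, with 97 control UMIs and 0 in iPCKO. Gene counts for OPC-like cells were not run. Counting intervals say nothing of the spread between mice.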
